A study of Mus musculus with 36 samples.

Results

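Transcript levels of 8 genes of osteoclast differentiation were followed in mouse bone marrow-derived macrophages that lacked or carried N4bp1. The 8 genes were Tnfrsf11a, Oscar, Nfatc1, Dcstamp, Ocstamp, Atp6v0d2, Acp5 and Ctsk, chosen by symbol from 52636 gene identifiers. This choice was made with earlier results of these data known. Groups were N4bp1 KO and WT macrophages, each with R837 for 7 h, with R837 for 3 h, or with R837 for 3 h and then actinomycin D (ActD) for 0.5, 1, 2 or 4 h. R837 (imiquimod) is an agonist of Toll-like receptor 7, and ActD blocks transcription. Each of the 12 groups held 3 libraries, 36 in all, and the labels state that replicates were macrophages of 3 individual mice. The protocol names C57BL/6N mice, calling them wild type for all libraries; the sources used here do not name the KO allele or the age of the mice. All cells had been grown in M-CSF, the macrophage growth factor, with no RANKL named in the protocol, and every group had received R837. No unstimulated group was analysed here.

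Osteoclasts are multinucleated bone-resorbing cells that arise from the same myeloid precursors as macrophages. In the usual pathway, RANKL (Tnfsf11) binds its receptor RANK (Tnfrsf11a), and together with costimulatory receptors such as OSCAR this induces the transcription factor NFATc1. NFATc1 then raises genes for cell fusion (Dcstamp, Ocstamp), acid secretion (Atp6v0d2) and matrix digestion (Acp5, Ctsk). Macrophages in M-CSF carry RANK and can express several of these genes without being osteoclasts.

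Libraries held 20271550 to 46107214 gene counts. Levels are given as CPM (counts relative to the library's total, scaled by TMM), which sets the average transcript equal between libraries, so in these bulk samples fewer cells of a type and less RNA per cell cannot be told apart. Tests were edgeR quasi-likelihood tests over 13748 genes with Benjamini-Hochberg adjustment; a gene is called higher or lower at an adjusted p below 0.05. The N4bp1 transcript was present in all KO libraries, at 86.0, 85.0 and 81.3 CPM in KO and 125, 147 and 128 CPM in WT at 3 h, and at 145, 141 and 143 CPM in KO and 171, 183 and 170 CPM in WT at 7 h. It was lower in KO at 3 h, 7 h and ActD 0.5 and 1 h, did not pass at ActD 2 h, and was higher in KO at ActD 4 h (76.8 to 94.2 CPM in KO and 53.4 to 63.3 CPM in WT). The call at 7 h ended with ribosomal genes as the reference (-0.28, adjusted p = 0.0924). Counts over a whole gene do not show which exons are deleted, so this level does not check the genotype labels. Summed macrophage markers were at 21650 to 25140 CPM in KO and 22580 to 26250 CPM in WT at 3 h. Most of this sum was Lyz2 (mean 13780 CPM in KO and 15730 in WT), whose libraries overlapped. The KO libraries lay above all WT libraries for Adgre1, Csf1r, Itgam and Cd14, and below them for Fcgr1 and Mrc1. At 7 h the sum was at 25180 to 25610 CPM in KO and 24740 to 25070 CPM in WT. Itgam and Cd14 then lay above in KO, and Csf1r, Cd68, Fcgr1 (981.5 to 1044 and 1895 to 2060 CPM) and Mrc1 below. At 3 h the osteoclast marker Calcr, the calcitonin receptor gene, had 0 counts in all 6 libraries (3 counts would be 0.0727 to 0.167 CPM in a library). At 7 h Calcr had 3, 7 and 8 counts in KO and 0, 1 and 1 in WT, too few to be tested. Some markers of other cells also differed between genotypes. Over all genes, 15.2% were called higher and 12.6% lower in KO at 3 h (27.8% together). At 7 h these shares were 15.5% and 15.1% (30.6% together). Of 10 fibroblast and stromal markers tested, 8 were higher and 0 lower in KO at 3 h, with a summed level of 71.0 to 77.0 CPM in KO and 40.2 to 45.3 CPM in WT and 0 of the 11 listed markers at 0 in either group. At 7 h, 9 were higher and 0 lower, with 66.0 to 74.5 CPM in KO and 39.3 to 41.7 CPM in WT. Summed dendritic cell markers were at 179 to 187 CPM in KO and 95.3 to 102 CPM in WT at 7 h, with Cd209a at 0 in KO (3 of 6 tested higher, 0 lower). Most of this sum was H2-Ab1 (mean 128 CPM in KO and 62.9 in WT), Ccr7 (32.8 and 16.3) and Itgax (19.1 and 17.8). Rare at 7 h were Flt3 (0.62 and 0.53), Zbtb46 (0.78 and 0.29), Siglech (0.87 and 1.29) and Xcr1 (0.066 and 0.031). B and plasma cell markers were at 115 to 121 CPM in KO and 60.5 to 70.1 CPM in WT (3 of 8 higher, 0 lower), and neutrophil markers at 870 to 907 CPM in KO and 582 to 601 CPM in WT (2 of 10 higher, 0 lower), with none at 0. At 3 h dendritic cell markers were at 153 to 172 CPM in KO and 129 to 138 CPM in WT (3 of 6 higher, 1 lower), and B and plasma cell markers at 156 to 168 CPM in KO and 87.4 to 96.4 CPM in WT (4 of 8 higher, 1 lower). Neutrophil markers overlapped at 3 h, at 628 to 747 CPM in KO and 633 to 733 CPM in WT (3 of 10 higher, 0 lower). The neutrophil counts at both times, and the B and plasma cell count at 7 h, are near the shares over all genes in either direction. The part of these cells in the results below was not tested.

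KO and WT macrophages differed in most of the 8 genes, but not in one direction. At 3 h of R837, 4 of the 7 genes tested were higher in KO (Ocstamp, Dcstamp, Acp5 and Nfatc1) and 1 was lower (Atp6v0d2). Over all genes 15.2% were called higher and 12.6% lower (27.8% in either direction), and the median log2 fold change was 0.51 for the 7 members and 0.0055 for all genes. At 7 h, 2 were higher (Dcstamp and Acp5) and 2 lower (Tnfrsf11a and Atp6v0d2), beside 15.5% higher and 15.1% lower over all genes (30.6% in either direction), with a median of -0.18 for the members and -0.0069 for all genes. Tnfrsf11a and Ctsk were not called at 3 h, and Ocstamp, Nfatc1 and Ctsk were not called at 7 h. Oscar was too rare to be tested. Because the 8 genes were chosen with earlier results known, the shares and medians over all genes describe them and test nothing.

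**Figure D1:**
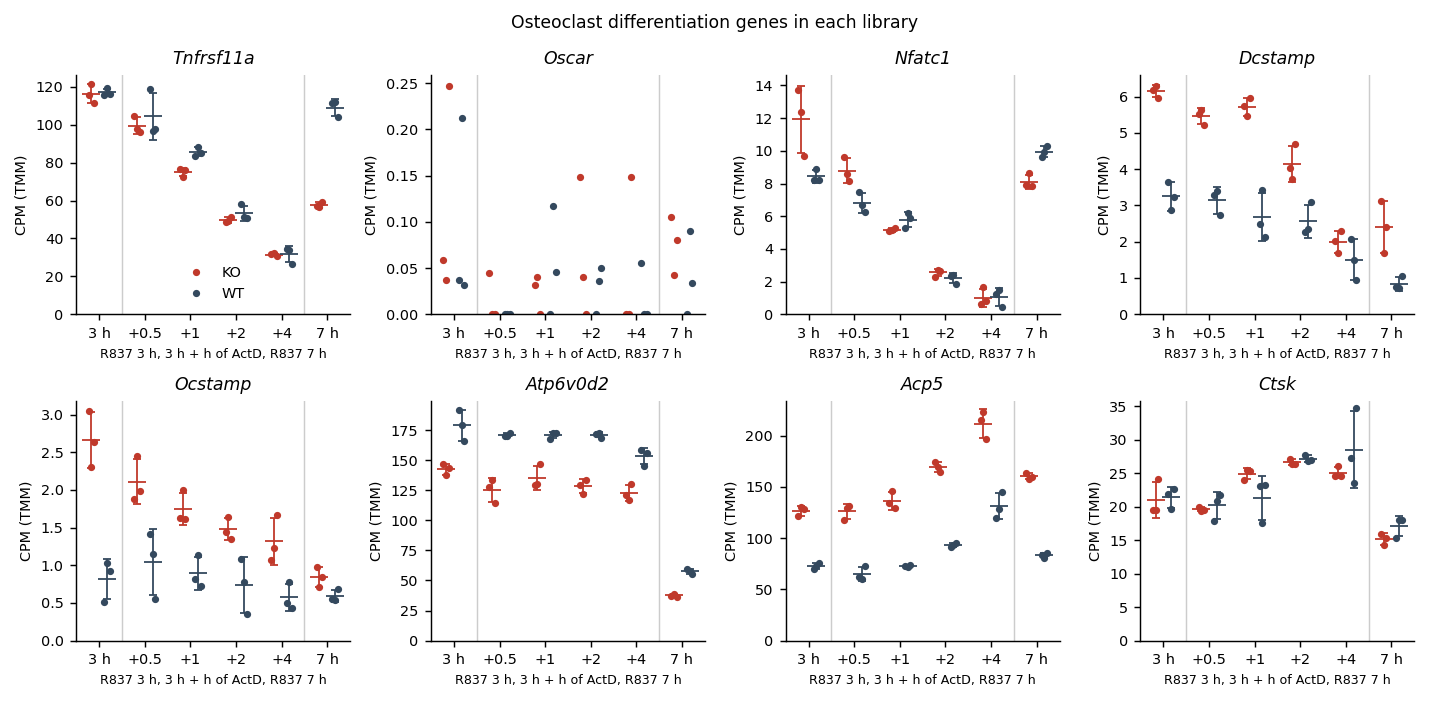
TMM-scaled CPM of the 8 genes in each of the 36 libraries, for KO (left, red) and WT (right, dark grey) in each condition; points are libraries, bars the mean ± SD (not drawn for Oscar). The Acp5 points of KO lie above those of WT in all 6 conditions, and the Tnfrsf11a points separate widely at 7 h, with KO at 56.7 to 59.3 CPM and WT at 104 to 112 CPM.

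Tnfrsf11a encodes RANK, the receptor for RANKL (ENSMUSG00000026321, GRCm38 chromosome 1, 105780718 to 105847981, plus strand). At 7 h of R837 its level was 57.1, 56.7 and 59.3 CPM in the KO libraries and 111, 112 and 104 CPM in the WT libraries. The KO libraries all lay at about the same low level, far from the lowest WT library. The log2 fold change was -0.92 ± 0.07 (SE, n = 3 each), or 1.89-fold lower in KO (edgeR adjusted p = 3.07e-13). At 3 h the genotypes overlapped, with 116, 122 and 112 CPM in KO and 116, 119 and 116 CPM in WT. The difference there was -0.01 with a 95% interval of -0.15 to 0.13 on the log2 scale. RANK transcript thus fell between 3 h and 7 h in KO (log2 -1.01 ± 0.07, edgeR adjusted p = 3.36e-15) and did not pass in WT (-0.10 ± 0.07, edgeR adjusted p = 0.227). The difference between these changes was itself -0.91 ± 0.10 (edgeR adjusted p = 1.11e-08), and it kept its call without each of the 12 libraries in turn.

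Under ActD the RANK transcript declined at nearly the same rate in both genotypes, by 0.47 log2 per hour in KO and in WT. After 4 h of ActD it stood at 27.1% of its 3 h mean in KO (26.4 to 27.6% over libraries) and at 27.0% in WT (22.8 to 29.4%). During ActD the genotype difference at 1 h, -0.19 ± 0.07, did not pass (edgeR adjusted p = 0.0668) but passed with scaling to library size alone (-0.24, adjusted p = 0.03). The difference in slope was -0.003 log2 per hour, with a 95% interval of -0.07 to 0.07. With transcription left on for those 4 h, the level at 7 h was 1.83-fold that of R837 3 h with ActD 4 h in KO and 3.44-fold in WT. This gap between genotypes had the same size as the first, -0.91 ± 0.11 (edgeR adjusted p = 4.50e-08); both comparisons share the 7 h libraries.

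The sequences shown for Tnfrsf11a are the 250 bases before its start, since its KO difference appeared with time while transcription was on, and one element of its 3' untranslated region, since its level declined under ActD. The upstream sequence (RefSeq, GRCm38, chr1:105780473-105780722, plus strand) is 73.6% G or C. None of 5 motifs, searched on both strands without regard to overlap, was in this window. They were the M-box TCATGTG, bound by MITF-family factors (in 3.25% of the 32851 upstream windows searched), AP-1 TGANTCA (6.75%), the NFAT core TGGAAA (18.6%), a PU.1 core GAGGAAGT (2.44%) and TATAAA (12.4%).
Tnfrsf11a upstream: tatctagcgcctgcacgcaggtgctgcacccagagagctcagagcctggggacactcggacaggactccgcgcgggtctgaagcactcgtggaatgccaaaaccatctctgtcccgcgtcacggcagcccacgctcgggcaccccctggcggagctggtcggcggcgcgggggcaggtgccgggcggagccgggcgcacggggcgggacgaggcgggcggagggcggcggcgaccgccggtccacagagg
Its annotated 3' untranslated region (GENCODE M21, 3115 bases) holds 5 copies of ATTTA and 1 of TATTTAT, in capitals here.
Tnfrsf11a element: ccccacccccaTATTTATtattcacttgc
ATTTA is in 70.9% and TATTTAT in 30.2% of the 3' untranslated regions of 11640 tested genes, and of the 8 genes only Tnfrsf11a held TATTTAT.

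Oscar encodes an immunoglobulin-like costimulatory receptor of osteoclasts (ENSMUSG00000054594, chromosome 7, 3609813 to 3616157, minus strand). Only 47 counts were assigned to it in all 36 libraries together, with at most 6 in a library and none in 14. At 7 h there were 3, 1 and 2 counts in the KO libraries and 0, 3 and 1 in the WT libraries. At 3 h there were 2, 1 and 6 counts in KO and 1, 6 and 1 in WT. The groups overlapped in every condition, and no difference was detectable at this depth.

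Nfatc1 encodes the transcription factor that drives the osteoclast programme (ENSMUSG00000033016, chromosome 18, 80606205 to 80713071, minus strand). At 3 h its level was 13.8, 12.4 and 9.67 CPM in the KO libraries and 8.19, 8.90 and 8.21 CPM in the WT libraries. The KO libraries were more spread than the WT libraries but lay above all of them. The log2 fold change was 0.51 ± 0.15 (edgeR adjusted p = 0.00873); without the highest KO library, replicate 1, it was 0.39 and did not pass (adjusted p = 0.098). Gene width here is the width deposited with the counts (7433 bases for Nfatc1), not the span on the chromosome. Across all genes the 3 h difference increased with gene width (Spearman rho 0.30 over 13748 genes). For Nfatc1, the widest of the 8 genes, 0.34 was left after that trend was subtracted.

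By 7 h the order of the genotypes had turned for Nfatc1, with 7.88, 8.62 and 7.83 CPM in KO and 9.61, 9.95 and 10.3 CPM in WT. The libraries did not overlap, but the log2 fold change of -0.30 ± 0.15 did not pass (edgeR adjusted p = 0.135); it passed when only the libraries compared were fitted (adjusted p = 0.00664) and with scaling to library size alone (adjusted p = 0.0457). From 3 h to 7 h Nfatc1 fell in KO by 0.56 ± 0.15 log2 (edgeR adjusted p = 0.00116). In WT the change was 0.24 ± 0.15 and did not pass (adjusted p = 0.164); it passed as higher with DESeq2 (0.29, adjusted p = 0.0434) and with only the libraries compared (0.27, 0.0197). The difference between the genotypes in this change was -0.80 ± 0.21 (edgeR adjusted p = 0.0063), and it passed without each of the 12 libraries in turn.

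Of the 7 genes tested, Nfatc1 declined fastest under ActD. It was at 8.58% of its 3 h mean after 4 h in KO (5.08 to 13.8%) and at 12.4% in WT (5.20 to 17.3%), that is 22 to 35 counts a library in KO and 8 to 32 in WT. After 1 h it was at 42.5 to 44.1% in KO and 62.7 to 73.2% in WT, without overlap. The trend with gene width at the width of Nfatc1 was 0.16 log2 at 3 h and -0.16 at ActD 1 h. The KO over WT difference at ActD 1 h, -0.17, was not called, and -0.0066 was left after that trend was subtracted. The slope was -0.94 ± 0.06 log2 per hour in KO and -0.79 ± 0.07 in WT. Their difference of -0.16 ± 0.10 did not pass (edgeR adjusted p = 0.662). With transcription left on, the level at 7 h was 8.61-fold that under ActD in KO and 9.33-fold in WT.

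**Figure D2:**
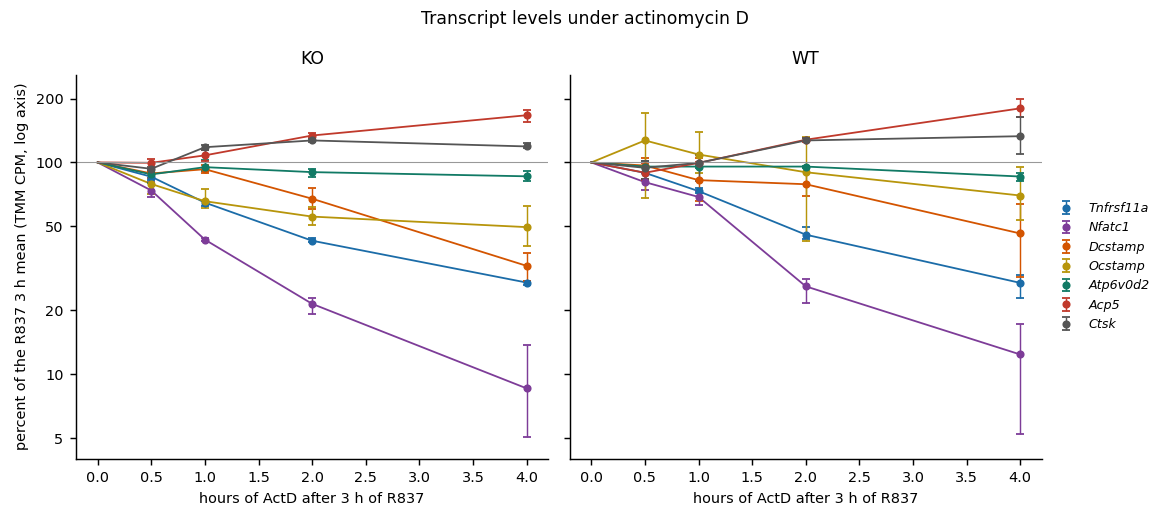
Level of the 7 tested genes under ActD as a percentage of the R837 3 h mean of the same genotype (log axis; points are means of 3 libraries, bars the lowest and highest library), KO left and WT right. Nfatc1 falls to 8.58% in KO and 12.4% in WT at 4 h, Tnfrsf11a to 27.1% and 27.0%, while Acp5 reaches 167% in KO and 180% in WT relative to the average transcript.

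Dcstamp encodes DC-STAMP, a membrane protein needed for fusion of osteoclast precursors (ENSMUSG00000022303, chromosome 15, 39745930 to 39760938, plus strand). At 3 h it stood at 6.19, 6.30 and 5.97 CPM in KO and 3.65, 2.86 and 3.23 CPM in WT, with no overlap. The log2 fold change was 0.92 ± 0.17 (1.90-fold higher in KO, edgeR adjusted p = 8.86e-05). At 7 h the level was 3.12, 1.68 and 2.40 CPM in KO and 0.745, 0.721 and 1.06 CPM in WT. All KO libraries were again above all WT libraries, with a wide spread in KO. Here the log2 fold change was 1.53 ± 0.23 (2.89-fold higher in KO, edgeR adjusted p = 1.28e-06). Between 3 h and 7 h Dcstamp fell in both genotypes, by 1.34 ± 0.18 log2 in KO and by 1.95 ± 0.22 in WT, and the difference between these falls did not pass (0.61 ± 0.29, edgeR adjusted p = 0.186).

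Dcstamp declined under ActD by 0.40 ± 0.04 log2 per hour in KO and by 0.25 ± 0.05 in WT. The slope difference of -0.14 ± 0.06 had an unadjusted p of 0.0307 and did not pass (edgeR adjusted p = 0.564). After 4 h of ActD the genotypes overlapped, at 2.01, 1.69 and 2.30 CPM in KO and 2.06, 1.51 and 0.932 CPM in WT. The fold change there, 0.43 ± 0.23, did not pass (edgeR adjusted p = 0.157) unless WT replicate 1 was left out (0.70, adjusted p = 0.0349) or ribosomal genes were the reference (0.70, 0.029). In KO the level at 7 h was not distinguishable from that under ActD (log2 0.26 ± 0.20, edgeR adjusted p = 0.239), and passed as higher without KO 7 h replicate 2 (0.48, adjusted p = 0.0389) and with ribosomal genes as the reference (0.70, 0.00745). In WT it was lower at 7 h than under ActD (-0.84 ± 0.27, edgeR adjusted p = 0.00473), a call that ended without WT ActD replicate 1 (-0.53, adjusted p = 0.105) and with ribosomal genes as the reference (-0.13, 0.708). The genotype difference in this comparison was 1.10 ± 0.33 (edgeR adjusted p = 0.0204). It did not pass with ribosomal genes as the reference (0.83, adjusted p = 0.107) or with only the libraries compared (1.11, 0.0509). Nor did it pass without KO 7 h replicate 1 (0.86, adjusted p = 0.0984), WT 7 h replicate 1 (1.03, 0.0575), WT 7 h replicate 2 (1.00, 0.0637) or WT ActD replicate 1 (0.82, 0.114).

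Ocstamp encodes OC-STAMP, a related fusion protein (ENSMUSG00000027670, chromosome 2, 165393760 to 165400405, minus strand). It was rare, with 63 to 104 counts a library in KO and 14 to 29 in WT at 3 h. Those libraries stood at 3.05, 2.31 and 2.63 CPM in KO and 0.517, 1.02 and 0.919 CPM in WT. Every KO library had more than 2-fold the level of the highest WT library. The log2 fold change of 1.69 ± 0.27 (3.23-fold higher in KO, edgeR adjusted p = 8.11e-06) had the largest size among the 7 members tested at 3 h. At 7 h the level was 0.981, 0.715 and 0.839 CPM in KO and 0.550, 0.541 and 0.682 CPM in WT. The libraries of the genotypes were still apart, but narrowly, and the fold change of 0.53 ± 0.33 did not pass (edgeR adjusted p = 0.246). Ocstamp fell from 3 h to 7 h in KO by 1.65 ± 0.27 log2 (edgeR adjusted p = 1.92e-06) and did not pass in WT (-0.48 ± 0.33, adjusted p = 0.206). The difference between these changes, -1.17 ± 0.43, did not pass in the model of all groups (edgeR adjusted p = 0.0721); it passed with DESeq2 (-1.19, adjusted p = 0.0419), with only the libraries compared (-1.16, 0.0394) and with ribosomal genes as the reference (-1.38, 0.045).

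In the ActD groups Ocstamp was higher in KO at all 4 times. The log2 fold changes were 1.04 at 0.5 h, 0.93 at 1 h, 0.99 at 2 h and 1.16 at 4 h. The first 3 of these calls each ended without single libraries. At 0.5 h this was WT replicate 3 (0.74, adjusted p = 0.0548). At 1 h it was KO replicate 2 (0.83, 0.0691), WT replicate 1 (0.85, 0.066) or WT replicate 3 (0.81, 0.0759), as well as ribosomal genes as the reference (0.79, 0.063), and at 2 h KO replicate 2 (0.91, 0.0535) or WT replicate 3 (0.69, 0.116). The slope under ActD was -0.24 ± 0.06 log2 per hour in KO (edgeR adjusted p = 0.00148) and -0.15 ± 0.08 in WT (adjusted p = 0.106), and their difference did not pass (-0.09 ± 0.11, adjusted p = 0.876). The WT slope passed with scaling to library size alone (-0.25, adjusted p = 0.00866), with ribosomal genes as the reference (-0.34, 0.00177) and without WT 3 h replicate 1 (-0.19, 0.0352).

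Atp6v0d2 encodes the d2 subunit of the proton pump (V-ATPase), a form abundant in osteoclasts (ENSMUSG00000028238, chromosome 4, 19876841 to 19922605, minus strand). It was lower in KO in all 6 conditions. At 3 h it had 147, 138 and 143 CPM in the KO libraries and 192, 179 and 166 CPM in the WT libraries, with a gap between the groups. This log2 fold change was -0.33 ± 0.06 (1.25-fold lower in KO, edgeR adjusted p = 1.29e-04). At 7 h there were 37.3, 39.1 and 36.3 CPM in KO and 59.4, 58.3 and 55.2 CPM in WT. Both genotypes had lost most of the transcript, and KO held less in every library (-0.62 ± 0.07, 1.54-fold lower, edgeR adjusted p = 6.75e-10). With ribosomal genes as the reference in place of TMM, which moved the median of all genes by 0.21 log2 at 3 h and 0.28 at ActD 4 h, the difference did not pass at 3 h (-0.12, adjusted p = 0.327) or at ActD 4 h (-0.05, adjusted p = 0.714).

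The fall of Atp6v0d2 between 3 h and 7 h was 1.93 ± 0.07 log2 in KO (edgeR adjusted p = 2.06e-25) and 1.63 ± 0.06 in WT (edgeR adjusted p = 2.23e-23). The genotype difference of -0.29 ± 0.09 passed (edgeR adjusted p = 0.0273), but not without KO 7 h replicate 1 or 3, WT 7 h replicate 1 or 2, KO 3 h replicate 1 or WT 3 h replicate 3 (-0.24 to -0.29, adjusted p 0.0593 to 0.112), nor without the filter on low counts (-0.31, 0.0675). Under ActD the slope did not pass in KO (-0.03 log2 per hour, edgeR adjusted p = 0.0607) or in WT (-0.03, adjusted p = 0.122), though several alternatives called it negative. These were ribosomal genes as the reference (-0.17 in KO and -0.22 in WT), library size alone (-0.10 in KO and -0.13 in WT) and ActD 4 h against 0 h (-0.054 in KO and -0.055 in WT). In WT it also passed with no filter (-0.051, adjusted p = 0.0191) and with a filter of CPM 1 in 3 libraries (-0.039, 0.0344). It passed without KO ActD 0.5 h replicate 1 or 3 in KO, and without WT ActD 4 h replicate 1 or any 1 of the WT ActD 2 h libraries in WT (adjusted p 0.0151 to 0.0498). The transcript was at 86.0% of its 3 h mean after 4 h in KO (81.8 to 91.3%) and 85.8% in WT (81.3 to 88.7%). With transcription left on it was lower, at 26.3% in KO and 32.2% in WT at 7 h. The level at 7 h was thus 3.27-fold lower than under ActD in KO and 2.66-fold lower in WT. That genotype difference was -0.29 ± 0.09 (edgeR adjusted p = 0.0237), and it did not pass without KO 7 h replicate 1 or 3, WT 7 h replicate 1 or 2, KO ActD replicate 3 or WT ActD replicate 2 (-0.26 to -0.29, adjusted p 0.0504 to 0.0658).

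The paralogue Atp6v0d1, the d subunit of most tissues, did not pass between genotypes at 3 h (-0.04 ± 0.06) or at 7 h (-0.12 ± 0.06, edgeR adjusted p = 0.127); at 7 h it passed with DESeq2 (-0.14, adjusted p = 0.0429), with only the libraries compared (0.00142) and with library size alone (0.00696). Per kilobase of gene width, d2 made up 28.6 ± 0.70% of the summed d1 and d2 level in KO and 32.7 ± 0.18% in WT at 3 h (SD, n = 3 each). At 7 h its share was 8.01 ± 0.46% in KO and 10.9 ± 0.52% in WT. The libraries of the genotypes did not overlap at either time.

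Acp5 encodes tartrate-resistant acid phosphatase (TRAP), the enzyme stained to identify osteoclasts (ENSMUSG00000001348, chromosome 9, 22126727 to 22135711, minus strand). At 3 h there were 121, 131 and 128 CPM in KO and 70.1, 72.7 and 75.9 CPM in WT. Each genotype was tight and the groups were far apart. The log2 fold change was 0.80 ± 0.07 (1.74-fold higher in KO, edgeR adjusted p = 1.29e-11). At 7 h there were 164, 158 and 160 CPM in KO and 83.9, 80.8 and 85.1 CPM in WT. Here KO was 1.93-fold higher (0.95 ± 0.07, edgeR adjusted p = 1.41e-14). In the model of all groups, Acp5 was the 1 member called higher at 7 h than at 3 h, by 0.34 ± 0.07 log2 in KO and 0.19 ± 0.07 in WT. The rise in WT (edgeR adjusted p = 0.0155) did not pass without WT 7 h replicate 3 (0.18, 0.0539), without WT 3 h replicate 1 (0.16, 0.0739) or with scaling to library size alone (0.12, 0.103).

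Relative to the average transcript Acp5 increased under ActD, by 0.21 ± 0.02 log2 per hour in KO and 0.26 ± 0.02 in WT. After 4 h it was at 167% of its 3 h mean in KO (155 to 176%) and 180% in WT (164 to 199%). No spike-in was used here, so a positive slope is a statement about the share of this transcript in the remaining RNA. KO stayed above WT at each ActD time, with log2 fold changes of 0.96, 0.91, 0.86 and 0.69 at 0.5, 1, 2 and 4 h. The antisense transcript 6530413G14Rik shares 137 exon bases with Acp5 and had 0 to 4 counts a library. The kit does not keep strand, so reads from the shared bases cannot be told apart.

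RefSeq gives 3 starts for Acp5. The 250 bases before the innermost of them (GRCm38, chr9:22130599-22130848, minus strand) are shown because Acp5 was the member higher in KO in every condition, and because this window holds an M-box, the letters of a known MITF site type. The sequence after this start is found near the beginning of 2 of 6 GENCODE M21 transcripts of the gene, and that after each of the other 2 starts near the beginning of 0. Capitals mark, in order, the NFAT core (TTTCCA) and the M-box (CACATGA, 90 bases before the start), both as their reverse complements.
Acp5 upstream: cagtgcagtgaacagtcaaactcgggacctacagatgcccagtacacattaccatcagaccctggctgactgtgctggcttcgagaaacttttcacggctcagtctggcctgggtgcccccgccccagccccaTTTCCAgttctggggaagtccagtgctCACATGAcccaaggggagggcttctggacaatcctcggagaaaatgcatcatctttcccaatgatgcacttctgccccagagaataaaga
The other 2 Acp5 windows and the window before the Ctsk start hold none of the 5 motifs, and the Oscar window holds 2 NFAT cores. The sequence after the Ctsk start is found near the beginning of 0 of 1 GENCODE M21 transcripts of Ctsk. For the Oscar start this was 3 of 4 transcripts. No window is given here for Ocstamp, Dcstamp, Atp6v0d2 or Nfatc1. A match of letters is a description and no evidence of binding.

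Ctsk encodes cathepsin K, the collagen-degrading protease of osteoclasts (ENSMUSG00000028111, chromosome 3, 95499256 to 95509362, plus strand). It had 19.5, 19.5 and 24.1 CPM in KO and 21.9, 19.7 and 22.6 CPM in WT at 3 h. The groups overlapped, and the difference of -0.03 had a 95% interval of -0.24 to 0.18 on the log2 scale. At 7 h there were 15.9, 14.2 and 15.3 CPM in KO and 15.38, 17.97 and 18.05 CPM in WT, again overlapping. The log2 difference was -0.18, with an interval of -0.39 to 0.04. Ctsk was called in none of the 6 genotype comparisons; unadjusted p was 0.0319 at ActD 1 h, where the 3 KO libraries lay above the 3 WT libraries. It passed at ActD 4 h without WT replicate 2 (-0.30, adjusted p = 0.0281) and at 7 h with scaling to library size alone (-0.27, adjusted p = 0.034).

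Over time Ctsk fell from 3 h to 7 h in KO (-0.47 ± 0.11, edgeR adjusted p = 2.95e-04) and in WT (-0.32 ± 0.11, edgeR adjusted p = 0.00897). The call in WT ended without WT 7 h replicate 1 (-0.25, adjusted p = 0.0712) and with ribosomal genes as the reference (-0.21, adjusted p = 0.0604). Its slope under ActD was 0.08 ± 0.03 log2 per hour in KO and 0.15 ± 0.03 in WT, and both turned negative with ribosomal genes as the reference (-0.052 in KO and -0.045 in WT) and did not pass with scaling to library size alone (0.017 in KO and 0.044 in WT).

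**Figure D3:**
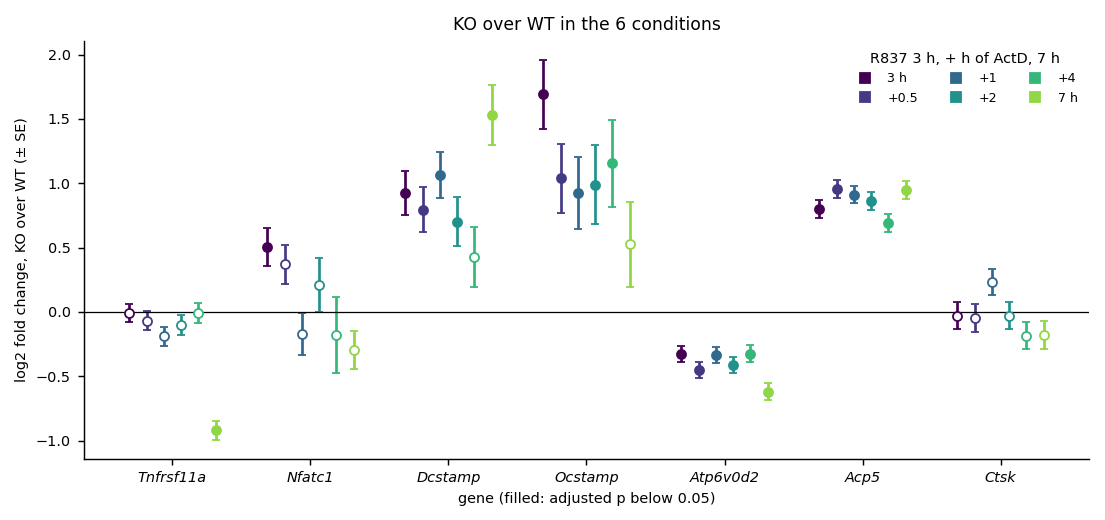
Log2 fold change of KO over WT (± SE, 3 libraries a group) for the 7 tested genes in the 6 conditions, coloured by condition from R837 3 h through the ActD times to R837 7 h; filled points passed an adjusted p below 0.05. Acp5 lies between 0.69 and 0.96 throughout, Atp6v0d2 between -0.32 and -0.62, and the 1 filled point of Tnfrsf11a is that at 7 h (-0.92).

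In the ActD groups the count of members higher and lower in KO was 3 and 1 at 0.5 h, where 13.7% of all genes were higher and 12.7% lower (26.4% in either direction). At 1 h it was 3 and 1 (7.51% and 9.92% of all genes, 17.4% together), at 2 h 3 and 1 (14.7% and 15.4%, 30.2% together) and at 4 h 2 and 1 (17.7% and 17.9%, 35.6% together). The member lower in KO was Atp6v0d2 each time. Those higher were Ocstamp and Acp5 at all 4 times, and Dcstamp at 0.5, 1 and 2 h. Nfatc1 at 0.5 h did not pass (0.37 ± 0.15, edgeR adjusted p = 0.0693), but passed with DESeq2 (0.38, 0.019), with no filter (0.38, 0.0416) and without WT replicate 1 (0.44, 0.0403). All these groups, and the 3 h groups, are of the same genotypes and may hold cells of the same mice, so they are not independent of each other.

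Between 3 h and 7 h, 1 of the 7 genes rose and 6 fell in KO, where 28.7% of all genes rose and 31.7% fell (60.4% together). In WT, 1 rose and 3 fell (27.3% and 30.7% of all genes, 58% together). The genotype difference in this change was called for 3 members, all lower in KO (Tnfrsf11a, Nfatc1 and Atp6v0d2), beside 6.84% of all genes lower and 5.45% higher (12.3% together).

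**Figure D4:**
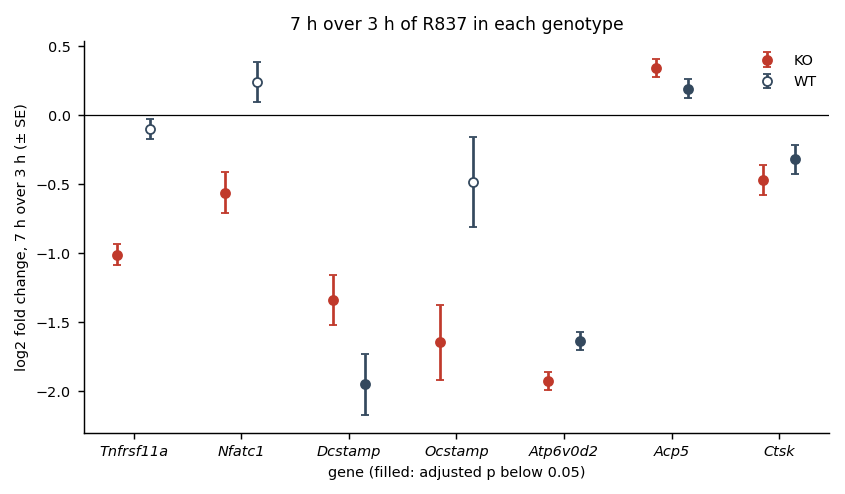
Log2 fold change of R837 7 h over R837 3 h (± SE, 3 libraries a group) for the 7 tested genes in KO (left, red) and WT (right, dark grey); filled points passed an adjusted p below 0.05. Tnfrsf11a stands at -1.01 in KO and -0.10 in WT, and Nfatc1 at -0.56 in KO and 0.24 in WT.

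Set against R837 3 h with ActD 4 h, which has the same total time, 2 members were higher and 3 lower at R837 7 h in KO, beside 38% and 36.1% of all genes (74.1% together). In WT, 2 were higher and 4 lower, beside 37.9% and 37.3% (75.3% together). Tnfrsf11a and Nfatc1 were the 2 higher ones in both genotypes, and Acp5, Ctsk and Atp6v0d2 were lower in both, with Dcstamp lower in WT. Ribosomal genes as the reference moved the median of all genes by 0.44 log2 in KO and 0.72 in WT here; Acp5 then stood at 0.043 in KO and 0.073 in WT, and Ctsk at 0.0026 in WT, none of which passed. Genotype differences were called for 1 member higher in KO (Dcstamp) and 2 lower (Tnfrsf11a and Atp6v0d2), beside 6.71% and 7.94% of all genes (14.6% together).

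The ActD slopes passed as positive for 2 members and negative for 4 in KO (32.3% and 35.8% of all genes, 68.1% together), and as positive for 2 and negative for 3 in WT (35.5% and 34.8%, 70.3% together). The slope differed between genotypes in 0 of the 7 members by edgeR, beside 0.0665% of all genes (0.0517% with a higher and 0.0148% with a lower slope in KO). Of the 7, 1 (Dcstamp) had an unadjusted p below 0.05, and DESeq2 called 0 as well. This test fits 1 straight line per genotype and called few genes of any kind, so a missing call does not show equal decline. Over all 13748 genes, ActD 4 h against 0 h differed between genotypes in 29 genes as higher in KO and 11 as lower. Counts of ATTTA in the annotated 3' untranslated regions are given as a description, and their part in the slopes was not tested. Per kilobase the count was 1.28 for Nfatc1 and 1.61 for Tnfrsf11a, which also held the 1 TATTTAT. It was 0 for Dcstamp and Acp5, 0.479 for Ocstamp, 2.90 for Atp6v0d2 and 4.55 for Ctsk.

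Per kilobase of gene width (TMM-scaled CPM per kilobase), the order of levels in KO at 3 h was Acp5 (74.1 ± 2.84, SD, n = 3), Atp6v0d2 (56.2 ± 1.73), Tnfrsf11a (23.1 ± 1.00), Ctsk (13.9 ± 1.75), Dcstamp (3.09 ± 0.09), Nfatc1 (1.60 ± 0.28), Ocstamp (0.728 ± 0.10) and Oscar (0.062). In WT at 3 h Atp6v0d2 (70.5 ± 5.02) stood above Acp5 (42.6 ± 1.70), and the other genes kept their places. At 7 h Acp5 led in both genotypes, at 93.9 ± 1.85 in KO and 48.7 ± 1.29 in WT. Atp6v0d2 (14.8 ± 0.56) lay above Tnfrsf11a (11.5 ± 0.28) in KO, while in WT these neighbours (22.7 ± 0.87 and 21.7 ± 0.89) did not differ beyond their spread. Nor did Dcstamp (1.20 ± 0.36) and Nfatc1 (1.09 ± 0.06) in KO at 7 h.

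Over the 12 group means, the members did not share 1 pattern. Nfatc1 and Tnfrsf11a varied most alike (Pearson r 0.93 over 12 groups, which share libraries' scaling), followed by Ocstamp and Dcstamp (0.84). Nfatc1 and Ctsk had r -0.77. Most of the 12 groups had received ActD, under which Nfatc1 and Tnfrsf11a both declined, and shared regulation was not tested. The genes outside the list with the pattern most like a member, among 8084 of mean CPM at least 5, were Lfng (0.99), Rassf5 (0.99) and Slc35e4 (0.99) for Tnfrsf11a, and Dyrk1a, Zfp275 and Rbm47 for Nfatc1 (0.99 each). For Atp6v0d2 they were Nceh1, Klc4 and Slco2b1 (0.99 each), for Acp5 H2-K1 (0.98), Pla2g7 (0.97) and H2-Q7 (0.97), and for Ctsk Rbks (0.98), Maoa (0.98) and Vcpkmt (0.97). Dcstamp was most like Tsc22d1 (0.97), Rnd1 (0.96) and Oaf (0.95), and Ocstamp, the rarest of the 7, like Tmem26 (0.94), Rmnd5a (0.94) and Smurf1 (0.93).

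Other genes of the pathway were described by 6 lists, also chosen with earlier results of these data known. Their counts stand, as a description, beside 15.2% higher and 12.6% lower over all genes at 3 h. For 7 h the shares over all genes were 15.5% and 15.1%. Of 20 RANK and costimulatory signalling genes tested, 11 were higher and 3 lower in KO at 3 h (median log2 fold change 0.27, beside 0.0055 over all genes), and 9 higher and 4 lower at 7 h (median 0.17). Src, a kinase needed for the osteoclast ruffled border, was higher by 0.91 log2 at 3 h and by 1.32 at 7 h, when it had 104, 112 and 110 CPM in KO and 45.4, 42.5 and 42.5 CPM in WT. The kinase gene Syk (0.46) and the phospholipase gene Plcg2 (0.48) were higher at 3 h, and Tec, another kinase of this pathway, was lower at 7 h (-1.07). Tnfsf11, which encodes RANKL, was rare but higher in KO at 7 h, with 33, 44 and 39 counts in KO and 10, 3 and 10 in WT (log2 2.59 ± 0.39, edgeR adjusted p = 1.57e-06). At 3 h it had 31, 31 and 42 counts in KO and 18, 15 and 19 in WT (1.04 ± 0.35, edgeR adjusted p = 0.0231), a call that ended without KO replicate 3 (0.76, 0.131), WT replicate 2 (0.96, 0.0689) or WT replicate 3 (1.05, 0.0699). Tnfrsf11b, which encodes the RANKL decoy receptor osteoprotegerin, had 7, 7 and 11 counts in KO and 0, 0 and 3 in WT at 7 h (edgeR adjusted p = 0.00343). Stromal cells also express both, and the stromal markers were higher in KO at both times, as given above; their part was not tested.

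Transcription factors and coactivators were higher in 8 and lower in 2 of 17 at 3 h (median 0.38; over all genes 15.2% and 12.6%), and higher in 10 and lower in 3 at 7 h (median 0.48; over all genes 15.5% and 15.1%). Fosl2, an AP-1 factor, had 229, 242 and 235 CPM in KO and 72.4, 76.6 and 73.0 CPM in WT at 7 h (3.18-fold higher). The NF-kB subunit gene Nfkb2 was at 1.31 and the AP-1 partner gene Jdp2 at 0.79 on the log2 scale at 7 h. At 3 h Jdp2 (0.52) and Prdm1 (0.74), which encodes the repressor Blimp1, were higher, and the AP-1 gene Jun was lower (-0.63).

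Inhibitors of osteoclast differentiation were higher in 2 and lower in 4 of 11 at 3 h (median -0.03), and higher in 3 and lower in 6 at 7 h (median -0.32). Id1, an inhibitor of helix-loop-helix factors, was 2.83-fold lower at 3 h, and the calcineurin inhibitor gene Rcan1 was at -0.49. Those higher included Tnfaip3, which encodes the NF-kB inhibitor A20 (0.61 at 3 h and 1.37 at 7 h), and Id3 (1.21 at 7 h).

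Resorption genes other than the members were higher in 5 and lower in 0 of 8 at 3 h (median 0.43), and higher in 5 and lower in 2 at 7 h (median 0.35). The matrix metalloproteinase genes Mmp9 and Mmp14 were 2.29-fold and 2.05-fold higher at 3 h. Car2, the carbonic anhydrase that supplies protons, was 1.67-fold higher at 3 h, with 9.88, 10.9 and 11.1 CPM in KO and 5.61, 5.93 and 7.39 CPM in WT. Fusion and podosome genes were higher in 2 and lower in 1 of 8 at 3 h (median -0.01), and higher in 1 and lower in 4 at 7 h (median -0.29). Among them Cd9, a tetraspanin gene, was lower at 3 h (-0.56), while Cd44 (0.31) and Sirpa (0.29; 0.22, adjusted p = 0.0607, without WT replicate 3) were higher. At 7 h Cd44 was at 0.86, the protease gene Adam8 at -0.82 and Tm4sf19 at -1.67.

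Of 18 other V-ATPase subunit genes tested, 1 was higher and 4 lower at 3 h (median 0.02), and 1 higher and 3 lower at 7 h (median -0.00097). The 5 and 4 of 18 called in either direction are near the shares over all genes, 27.8% at 3 h and 30.6% at 7 h. Tcirg1, the a3 subunit of the osteoclast pump, was the 1 higher at 3 h, with 223, 214 and 192 CPM in KO and 154, 162 and 140 CPM in WT (1.38-fold). Atp6v1g1 (-0.27) and Atp6v0e (-0.18) were lower at 3 h. The call of Atp6v1g1 ended without KO replicate 1 (-0.28, adjusted p = 0.0542), KO replicate 2 (-0.19, 0.166) or WT replicate 3 (-0.26, 0.0706) and with ribosomal genes as the reference (-0.067, 0.547). That of Atp6v0e ended with RLE scaling, DESeq2, no filter and only the libraries compared (adjusted p 0.0505 to 0.0907), without KO replicate 1 or 2 or WT replicate 1 or 3 (adjusted p 0.0888 to 0.237), and its value turned to 0.018 with ribosomal genes as the reference. At 7 h Atp6v0a1, which encodes another a subunit, had 19.3, 19.4 and 17.5 CPM in KO and 48.9, 47.2 and 45.9 CPM in WT (2.52-fold lower). Atp6v1b2 was lower (-0.34) and Atp6v1e1 higher (0.26).

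**Figure D5:**
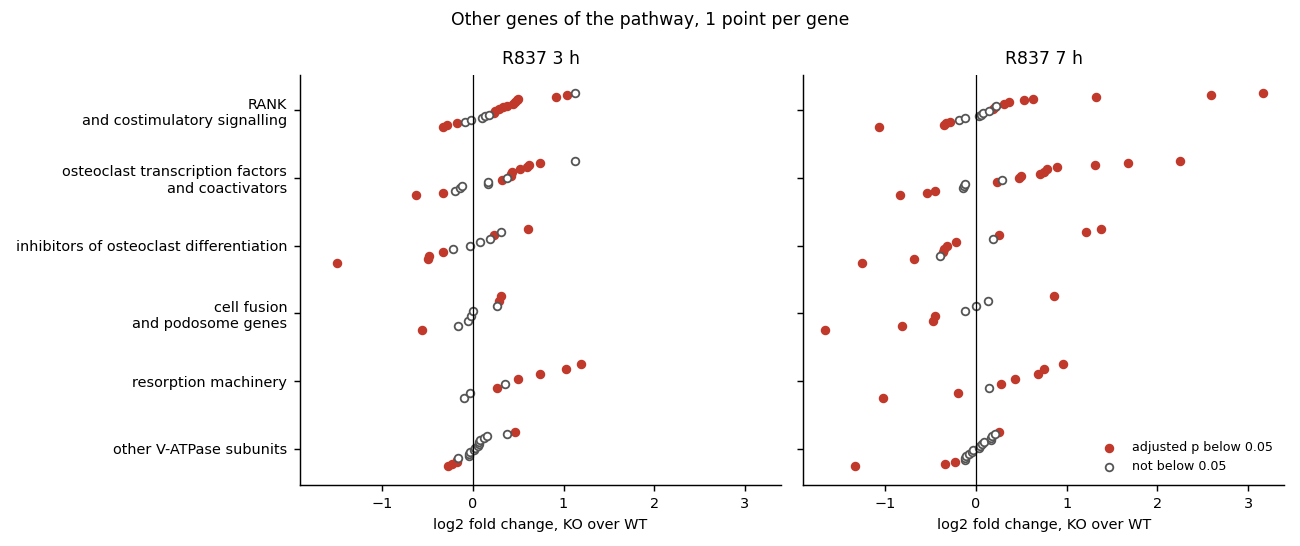
Log2 fold change of KO over WT for the tested genes of 6 pathway lists, 1 point per gene, at R837 3 h and R837 7 h; filled points passed an adjusted p below 0.05. The rightmost point at 7 h is Tnfrsf11b, whose fitted value rests on 3 counts in WT. Among V-ATPase subunits, Tcirg1 stands at 0.46 at 3 h and Atp6v0a1 at -1.34 at 7 h.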

How the data were processed

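RNA-seq of 36 libraries was analysed. Libraries were made with TruSeq RNA v2 and read as single ends on a HiSeq4000, per the labels' protocols. Reads were aligned with GSNAP to GRCm38, per the submitters' processing notes; no source used here names the counting program, the annotation or the strand setting. The authors deposited for each gene a count, an RPKM value and the gene width. Counts were whole numbers and entered all tests; RPKM served only to check the counts, which summed to 90.86 to 91.76% of the total the deposited RPKM values imply.

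Gene symbols came from GENCODE M21 (52489 of 52636 identifiers). Counts were filtered by filterByExpr (13748 genes; 13537 in the slope model), scaled by TMM and tested with edgeR 4.0.16 in R 4.3.3 (quasi-likelihood, 1 model of the 12 groups; a second model of slopes over hours of ActD on 30 libraries). The common biological coefficient of variation was 7.48%. Intervals are log2 fold change ± 1.96 SE. The fits were tested on simulated data.

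Alternatives were RLE, library size alone, 88 ribosomal protein and elongation factor genes as a stable reference, no filter, CPM of 1 in 3 libraries, DESeq2 1.42.0, an adjusted p of 0.01, only the libraries compared, each library left out, slopes to 2 h and ActD 4 h minus 0 h; subtraction of the trend with gene width was added after results were seen. The members and lists were chosen with earlier results of these data known. Pathway genes named beside their list's counts were the 3 with the smallest p at 3 h and at 7 h, and Tnfsf11, Tnfrsf11b and Atp6v0d1 always; genes like a member were the 3 with the highest r. 1 gene that this rule names is not reported here. Replicate numbers follow the order of the records. Cells of 1 mouse may be in several conditions; no label ties them, and the models treat libraries as independent. No pair of replicate libraries agreed within sampling noise (chi-square per degree of freedom 2.23 to 45.6).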

Additional observations from a re-analysis of the deposited data

Results flagged for a closer look

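The effect of 7 h over 3 h of R837 differed between KO and WT, by the test of the difference itself, for Tnfrsf11a (-0.909 log2), Nfatc1 (-0.803) and Atp6v0d2 (-0.291), each lower in KO. The effect of R837 7 h over R837 3 h with ActD 4 h differed between the genotypes for Tnfrsf11a (-0.911) and Atp6v0d2 (-0.295), lower in KO, and for Dcstamp (1.10), higher in KO. The 2 comparisons share the 7 h libraries.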

How the results depend on the processing

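No paired analysis was possible because the labels carry no replicate numbers that tie libraries of different groups. RLE scaling changed no member's call or direction. Called values that changed sign did so with ribosomal genes as the reference: Atp6v0e in KO over WT at 3 h (0.0183), Acp5 at R837 7 h over ActD 4 h in KO (0.0434) and in WT (0.0733), Ctsk in that comparison in WT (0.00257), and the Ctsk slope under ActD in KO (-0.0525) and in WT (-0.0454). A further 88 values changed sign under an alternative with a call in neither fit, up to 0.31 log2 in size; among them were Nfatc1 in KO over WT at ActD 4 h (-0.61 to 0.18 over the libraries left out) and Ctsk at 3 h (-0.14 to 0.02). The ribosomal reference called 3 members for R837 7 h over ActD 4 h in WT, against 6. The genotype difference in that comparison was called for 3 members, for 1 at an adjusted p below 0.01, and for 1 to 3 when each library was left out (1 without KO 7 h replicate 1, WT 7 h replicate 1 or WT 7 h replicate 2). With ribosomal genes as the reference the calls over all genes at 3 h were 3850 higher and 416 lower, against 2087 and 1731, and at ActD 4 h 4993 and 598, against 2439 and 2457. At ActD 0.5 h they were 2239 and 603 (against 1883 and 1743), at 1 h 440 and 2133 (1032 and 1364) and at 2 h 2724 and 754 (2023 and 2123), while at 7 h they were 1567 and 1730 (2126 and 2075). For R837 7 h over ActD 4 h they were 7180 and 2405 in KO (5224 and 4963) and 8575 and 1449 in WT (5216 and 5132). For the genotype differences they were 259 and 1499 over time (749 and 941) and 214 and 2589 over ActD (922 and 1091). ActD slopes were 703 positive and 7892 negative in KO (4379 and 4841) and 678 and 9094 in WT (4803 and 4711). Scaling to library size alone gave 1414 higher and 3192 lower at 7 h, 798 and 1863 at ActD 1 h, 2885 and 5423 for 7 h over 3 h in KO, 6208 and 3759 for R837 7 h over ActD 4 h in WT, 539 and 1296 and 471 and 2244 for the 2 genotype differences, and slopes of 2254 and 6156 in KO and 2172 and 6787 in WT. The cause was not tested. Low counts limit what can be said of Oscar, Ocstamp, Tnfsf11, Tnfrsf11b and Calcr.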
